A study of Mus musculus with 11 samples.

Results

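The APP-cleaving secretases are the proteases that cut the amyloid precursor protein (APP). Of the 53700 gene identifiers counted, 10 genes were chosen by symbol and not by a threshold on their values. They were the α-secretases Adam10 and Adam17, the β-secretase Bace1 and its homolog Bace2, and 6 genes of the γ-secretase complex, namely Psen2, Ncstn, Aph1a, Aph1b, Aph1c and Psenen. All 10 had reads and were tested, although Bace2 and Aph1c fell below the detection floor of 3 reads in some libraries.

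The counts came from the cerebral cortex of 8-month-old female 5xFAD mice, 6 with intact Abi3 (Abi3 WT) and 5 without it (Abi3 KO). Every animal carried the 5xFAD transgenes, human genes with familial Alzheimer's disease mutations that are driven by the Thy1 promoter and so are expressed mainly in neurons. No animal without the transgenes was compared here, so both genotypes are those of a transgenic amyloid model. The labels give the strain as C57BL/6. Abi3, a gene enriched in microglia, was deleted in every cell of the Abi3 KO animals, and the knockout allele was made in a C57BL/6N line. All mice, controls included, were heterozygous for the Trem2 variant of the SJL background. The targeted gene followed the labels, with 10 to 38 reads in the Abi3 WT and 0 to 2 reads in the Abi3 KO libraries, of which 4 had no read.

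APP is processed along competing routes. An α-secretase cuts within the amyloid-β (Aβ) sequence and so prevents Aβ from forming, whereas BACE1 cuts at its amino-terminal end. γ-Secretase then cuts the remaining membrane stub in the membrane and, after a BACE1 cut, releases Aβ. ADAM10 is the main α-secretase of neurons. ADAM17, also called TACE, sheds tumor necrosis factor as well as APP. γ-Secretase is assembled from a presenilin, which holds the catalytic site, nicastrin (Ncstn), an APH1 subunit, and PEN-2 (Psenen). In mice the APH1 subunit is encoded by Aph1a, Aph1b or Aph1c, and a complex contains a single APH1 protein.

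Each library held between 3202310 and 5501958 reads in genes. The sequencing (QuantSeq) reads only the 3′ ends of mRNAs, so a transcript gives about the same number of reads whatever its length, and levels are given as CPM, the library's reads scaled to a common total, without division by length. The 3 libraries Abi3 WT replicate 4 and Abi3 KO replicates 1 and 5 had over 1000 normalized reads of Ttr, a marker of choroid plexus, whereas the other libraries had at most 151.6. Reads outside annotated genes amounted to 59.3 to 68.8 per 100 reads in genes in Abi3 WT and 49.8 to 62.5 in Abi3 KO libraries, so this share moved with genotype. These values accompany every result that follows, and the part of the share outside genes in them was not tested beyond a fit with it as a covariate.

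On the CPM scale, Bace1 was the highest secretase gene, with 90.1 ± 10.8 CPM (SD, n = 11), followed by Adam10 with 61.3 ± 7.06 CPM. Bace1 was above Adam10, and Adam10 above Psen2, in 11 of 11 animals. Psen2 (22.7 ± 7.62 CPM) and Aph1b (22.5 ± 12.1 CPM) came next and could not be ordered, as Psen2 was the higher in only 5 of 11 animals. These levels pool both genotypes, and Aph1b had 4.71 to 23.6 CPM in Abi3 WT and 26.4 to 43.7 CPM in Abi3 KO. Its place in the order is that of the pooled animals only. Aph1b and Adam17 also lay within 1 SD, with Aph1b the higher in 8 of 11 animals. Adam17 (11.9 ± 4.02 CPM), Ncstn (10.5 ± 3.48 CPM) and Aph1a (10.1 ± 3.52 CPM) followed and lay within 1 SD of each other. Over the pooled animals, Aph1a was above the next gene, Psenen, by more than 1 SD and in 9 of 11 animals. The exceptions were Abi3 KO replicate 2 (5.85 compared with 6.36 CPM) and Abi3 KO replicate 5 (6.25 compared with 11.2 CPM). The lowest levels were those of Psenen (5.6 ± 2.53 CPM), Bace2 (3.12 ± 2.57 CPM) and Aph1c (2.61 ± 1.32 CPM). The lowest genes rested on few reads. Bace2 had 0 to 46 reads per library and Aph1c 1 to 16 reads.

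**Figure D1:**
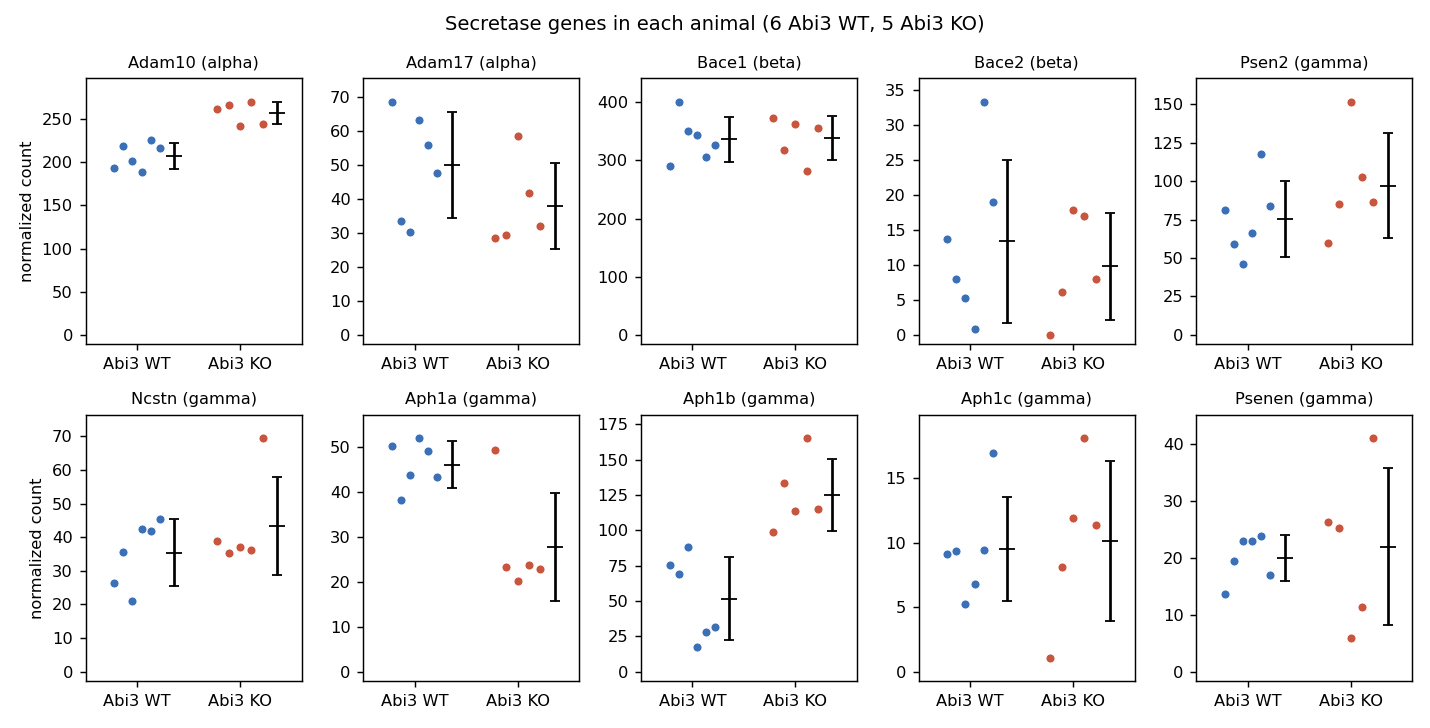
Normalized read counts of the 10 secretase genes in each animal, with 1 panel per gene and its own vertical axis. Colored points are animals (6 Abi3 WT, 5 Abi3 KO), and the black dash and bar beside them are the group mean and SD. All 5 Abi3 KO points lie above all Abi3 WT points for Adam10 and Aph1b, and 4 of 5 lie below them for Aph1a.

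None of the 10 secretase genes differed between Abi3 KO and Abi3 WT cortices at the threshold (DESeq2, Benjamini-Hochberg adjusted p of 0.05 or less). Among all 17626 genes tested 95 genes passed it, a background of 0.539% (0.34% higher in Abi3 KO). Without adjustment, 3 members had a DESeq2 p below 0.05, with Adam10 and Aph1b higher and Aph1a lower in Abi3 KO, where 8.58% of all genes had such a p (4.14% higher and 4.44% lower). With edgeR and with limma, 1 member passed the adjusted threshold, Aph1b, where 0.21% and 0.113% of all genes passed. The groups did not overlap for 2 members, Adam10 and Aph1b, both higher in Abi3 KO, compared with 1.04% of all genes in either direction and 0.539% in this one. The median log2 fold change of the members was 0.11, compared with −0.0034 over all genes, and 7 members were higher and 3 were lower, where 49.5% of all genes were higher. DESeq2 gave an adjusted p only to genes with a mean above 70.4 normalized reads, which left 4 members, Adam10, Bace1, Psen2 and Aph1b. For the other 6 members, the test had no adjusted p, and the lower depth limits what could be detected.

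Bace1, the enzyme that starts Aβ production, had nearly the same level in both groups. The gene lies on the plus strand of chromosome 9 in GRCm39, at chr9:45749834-45776173. Its normalized count was 289.9 to 400.8 (median 335.0) in Abi3 WT and 372.3, 318.2, 362.9, 281.2 and 355.1 in Abi3 KO. The groups overlapped, with Abi3 KO replicate 4 below the lowest and Abi3 WT replicate 2 above the highest animal of the other group. The mean was 336.1 ± 39.0 (SD, n = 6) in Abi3 WT and 337.9 ± 37.8 (SD, n = 5) in Abi3 KO, a fold change of 1.00 with a 95% interval from 0.865 to 1.16 (DESeq2 adjusted p = 0.995). Changes within this interval could not be told from none with these animals. Bace2 (chr16:97157720-97244136, plus strand), which cuts APP mostly within Aβ, overlaps the annotated gene Gm49681 on the same strand. It gave 9.77 ± 7.58 (SD, n = 5) normalized reads in Abi3 KO and 13.4 ± 11.7 (SD, n = 6) in Abi3 WT, with a fold interval from 0.276 to 1.90. With 0 to 46 reads per library, a difference of this size in Bace2 was not detectable.

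Adam10 (chr9:70586221-70687511, plus strand) was higher in every Abi3 KO animal than in any Abi3 WT animal. The Abi3 WT cortices had 188.3 to 226.0 normalized reads (median 208.9), and the Abi3 KO cortices had 261.1, 266.6, 242.3, 269.9 and 244.7. The lowest Abi3 KO animal lay above the highest Abi3 WT animal. The mean was 207.3 ± 15.4 (SD, n = 6) in Abi3 WT and 256.9 ± 12.7 (SD, n = 5) in Abi3 KO, a fold of 1.24 with a 95% interval from 1.07 to 1.43 and a log2 fold change of 0.31 (SE 0.11), and it did not pass the threshold (DESeq2 adjusted p = 0.121). The adjusted p ranged from 0.116 to 1.00 in the alternatives that gave one, and the log2 fold change from 0.28 to 0.33 over all 22 alternatives. Adam17 (chr12:21373510-21423672, minus strand) had 30.3 to 68.5 normalized reads in Abi3 WT (median 51.7) and 28.3, 29.3, 58.5, 41.8 and 31.9 in Abi3 KO. The groups overlapped, and 2 of 5 Abi3 KO animals lay below the lowest Abi3 WT animal. Its log2 fold change was −0.39 (SE 0.28), with a 95% interval from −0.95 to 0.16. It turned to 0.38 with reads outside genes as a covariate.

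**Figure D2:**
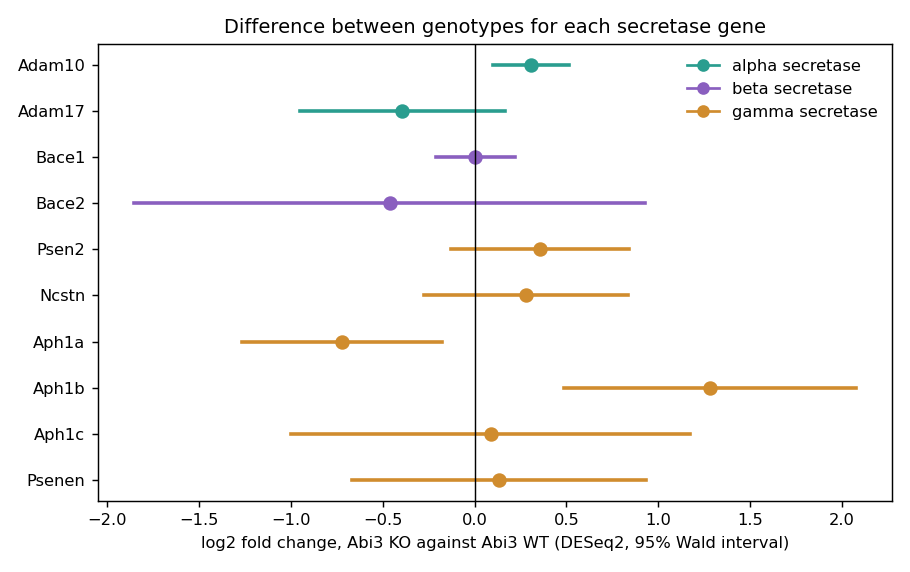
Log2 fold change of Abi3 KO over Abi3 WT for the 10 genes (points, colored by class) with 95% Wald intervals (lines) on the horizontal axis, 1 row per gene. The interval excludes 0 for Adam10, Aph1b and Aph1a, and none of the 10 passes an adjusted p of 0.05.

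The presenilin Psen2 (chr1:180054569-180091003, minus strand), the catalytic subunit measured here, had 46.0 to 117.3 normalized reads in Abi3 WT and 59.8, 84.8, 151.6, 102.8 and 86.5 in Abi3 KO. The groups overlapped, and the highest value came from Abi3 KO replicate 3. The means were 75.6 ± 24.8 (SD, n = 6) and 97.1 ± 34.1 (SD, n = 5), a fold of 1.28 with a 95% interval from 0.914 to 1.79 (DESeq2 adjusted p = 0.591). Without Abi3 KO replicate 3 the log2 fold change went from 0.36 to 0.14. Nicastrin, the substrate receptor of the complex, is encoded by Ncstn (chr1:171893580-171910369, minus strand). Ncstn had 20.9 to 45.5 normalized reads in Abi3 WT (median 38.74) and 38.8, 35.4, 37.0, 36.1 and 69.4 in Abi3 KO. Abi3 KO replicate 5 was above all other animals, and the other 4 lay within the Abi3 WT range. The log2 fold change was 0.28 (SE 0.28), with a 95% interval from −0.28 to 0.84, and it was 0.05 without Abi3 KO replicate 5. Psenen (chr7:30261080-30263562, minus strand), needed for maturation of presenilin, had 13.7 to 23.9 normalized reads in Abi3 WT (median 21.2) and 26.2, 25.3, 5.97, 11.3 and 41.0 in Abi3 KO. The Abi3 KO animals lay on both sides of the Abi3 WT range, with an SD of 13.8 compared with 4.07, and the log2 fold change was 0.13 (SE 0.41). Of 425 read-length windows at the 3′ end of Psenen, 85 also occurred in its copies Psenen-ps and Gm20369, which had no read in any library.

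In the reported DESeq2 fit, the largest fold changes among the members were those of 2 APH1 subunits, Aph1b and Aph1a. In some alternatives Bace2, Psenen or Aph1c had a larger one than Aph1a. With reads outside genes as a covariate, the log2 fold change of Aph1c (1.24) exceeded that of Aph1b (1.08). Aph1b and Aph1c lie beside each other on chromosome 9, both on the minus strand in GRCm39, at chr9:66612630-66702811 and chr9:66722031-66742644. Their coding sequences were identical in 95.9% of 774 aligned columns, compared with 59.2% for Aph1a and Aph1b. The first coding exons show where the pair can be told apart, and the 14 differing bases are in capitals. Both lie on the minus strand in GRCm39, at chr9:66702535-66702647 for Aph1b and chr9:66741768-66741880 for Aph1c.
Aph1b: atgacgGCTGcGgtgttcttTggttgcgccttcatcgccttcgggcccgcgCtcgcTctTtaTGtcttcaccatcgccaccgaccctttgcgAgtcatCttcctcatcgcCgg
Aph1c: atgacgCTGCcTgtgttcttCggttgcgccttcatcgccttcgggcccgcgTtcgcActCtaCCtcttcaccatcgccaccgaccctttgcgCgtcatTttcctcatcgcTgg
Coding exons 4 and 5 had no difference between the genes. The 3′ reads come from the other end of the transcripts. In the last 500 bases of the Aph1b transcript, 63 of 425 windows of the 76-base read length also occurred in Aph1c, so reads from these stretches cannot be assigned to 1 of the genes. For Aph1a, at chr3:95801233-95805901 on the plus strand, 344 of 425 windows also occurred in a long noncoding RNA that the count tables do not list, and its count is uncertain in that respect.

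Aph1b was higher in all Abi3 KO animals. The Abi3 WT animals had 75.3, 68.9, 87.9, 17.0, 28.2 and 31.7 normalized reads, and the Abi3 KO animals had 98.6, 133.3, 113.4, 164.9 and 114.9. The spread was widest among the Abi3 WT animals, 3 of which had at most 31.7 normalized reads, and the lowest Abi3 KO animal was above all of them. The mean was 51.5 ± 29.4 (SD, n = 6) in Abi3 WT and 125.0 ± 25.5 (SD, n = 5) in Abi3 KO, a fold of 2.43 with a 95% interval from 1.40 to 4.23 and a log2 fold change of 1.28 (SE 0.41). It missed the threshold (DESeq2 adjusted p = 0.0871). It passed with edgeR (adjusted p = 0.00783) and limma (adjusted p = 0.00477), with Aph1b and Aph1c reads merged (adjusted p = 0.00616), and in the DESeq2 fits without Abi3 WT replicate 5 (adjusted p = 0.0336), Abi3 WT replicate 6 (adjusted p = 0.0415) or Abi3 KO replicate 4 (adjusted p = 0.0376). In the last 4 of these, 0.545%, 0.365%, 0.272% and 0.68% of all genes passed. The merged fit tests Aph1b and Aph1c together and was chosen after seeing the data. Of the 22 alternatives, 14 gave Aph1b an adjusted p. It did not pass in the rest of these 14. Among them were filtering switched off (DESeq2 adjusted p = 0.192) and the fits without Abi3 KO replicate 2 (DESeq2 adjusted p = 0.232) or replicate 3 (DESeq2 adjusted p = 0.124). The log2 fold change was 1.08 with reads outside genes as a covariate (adjusted p = 1.00).

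Aph1a was lower in most Abi3 KO animals. It had 38.1 to 52.0 normalized reads in Abi3 WT (median 46.6) and 49.3, 23.2, 20.3, 23.7 and 22.8 in Abi3 KO. Abi3 KO replicate 1 lay within the Abi3 WT range, and the other 4 animals lay below it. The mean was 46.1 ± 5.23 (SD, n = 6) in Abi3 WT and 27.9 ± 12.1 (SD, n = 5) in Abi3 KO. The log2 fold change was −0.72 (SE 0.28), a fold of 0.607 with a 95% interval from 0.416 to 0.885, and DESeq2 gave no adjusted p because of the low count (0.376 with filtering switched off). Without Abi3 KO replicate 1 it was −1.03. Aph1c had 5.23 to 16.9 normalized reads in Abi3 WT and 1.05 to 18.1 in Abi3 KO, a log2 fold change of 0.09 (SE 0.55). The fold had a 95% interval from 0.500 to 2.26. The log2 fold change of Aph1c was −0.23 to 0.39 when 1 animal was left out, and 1.24 with reads outside genes as a covariate. Whether Aph1b and Aph1c differed from each other in their change was not tested.

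The share of Aph1b among the APH1 transcripts did not overlap between the groups. Aph1b made up 44.8% ± 17.1 (SD, n = 6) of the summed Aph1a, Aph1b and Aph1c reads in Abi3 WT and 76.4% ± 5.90 (SD, n = 5) in Abi3 KO, with ranges of 22.5% to 64.1% and 66.2% to 81.0%. Aph1a made up 45.7% and 17.6%. The summed APH1 count was 107.2 ± 25.9 and 163.0 ± 25.5 normalized reads, higher in 5 of 5 Abi3 KO animals than in all Abi3 WT animals. The summed γ-secretase count was 238.2 ± 22.1 and 325.4 ± 33.7 and did not overlap either, whereas without Aph1b it was 186.6 ± 35.8 and 200.3 ± 26.9 and overlapped. The α-secretase to β-secretase balance, as the ratio of Adam10 to Bace1 reads, was 0.623 ± 0.0792 in Abi3 WT and 0.771 ± 0.125 in Abi3 KO, with overlapping ranges. These sums and ratios were computed after the single genes were examined and are given without a test.

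**Figure D3:**
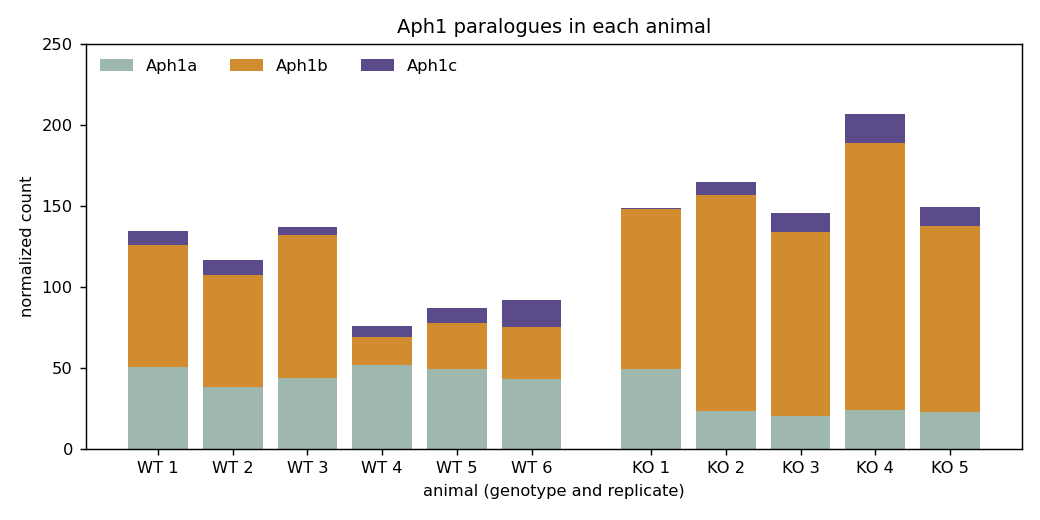
Normalized counts of Aph1a, Aph1b and Aph1c stacked in 1 bar per animal, with genotype and replicate on the horizontal axis and normalized counts on the vertical axis. Aph1b (the middle segment) makes up 66.2% to 81.0% of the bar in the 5 Abi3 KO animals and 22.5% to 64.1% in the 6 Abi3 WT animals.

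Members were compared with genes that work beside them, in lists made for this purpose. Among the accessory genes (tetraspanins that carry ADAM10, rhomboid partners of ADAM17, reticulons and trafficking proteins of BACE1), 24 of 26 were tested, 1 was higher and none lower past the threshold, against the background of 0.539%. Counting changes of any size, 11 were higher and 13 lower, with a median log2 fold change of −0.009. The tetraspanin gene Tspan33, named after its values were seen, was lower, with a log2 fold change of −0.71 (SE 0.29). It had 32.4 to 62.8 normalized reads in Abi3 WT and 18.2 to 38.8 in Abi3 KO, where 3 of 5 animals lay below all Abi3 WT animals. The gene past the threshold was Tspan14, a tetraspanin that brings ADAM10 to the cell surface. It had 51.3 to 74.2 normalized reads in Abi3 WT and 122.7, 114.1, 94.3, 64.4 and 120.6 in Abi3 KO, so Abi3 KO replicate 4 lay within the Abi3 WT range. Its log2 fold change was 0.69 (SE 0.20, DESeq2 adjusted p = 0.0405). It did not pass with edgeR, limma or filtering switched off (adjusted p = 0.0992 for the last), nor in 10 of 11 leave-one-out fits, the exception being that without Abi3 KO replicate 4. Rtn4, a reticulon that binds BACE1 and is named here after its values were seen, had 1579 to 1684 normalized reads in Abi3 WT and 1704 to 2084 in Abi3 KO, with a log2 fold change of 0.18 (SE 0.06, DESeq2 adjusted p = 0.102).

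Among 21 tested substrates of the secretases, none passed the threshold, 5 had an unadjusted DESeq2 p below 0.05 (all higher, where 4.14% of all genes were) and 16 were higher (49.5% of all genes), with a median log2 fold change of 0.04. App itself had 4666 to 5711 normalized reads in Abi3 WT and 5697, 6380, 5609, 5798 and 6335 in Abi3 KO, a log2 fold change of 0.16 (SE 0.06, DESeq2 adjusted p = 0.182). Reads of a human transgene were not separated from those of mouse genes. Thy1, whose promoter drives the transgenes and which is named after its values were seen, had 3630 to 3921 normalized reads in Abi3 WT and 5079 to 6531 in Abi3 KO. These ranges did not overlap, as was so for 0.539% of all genes in this direction. Whether transgene reads contributed to the App count or to the Thy1 count was not tested. None of 5 tested other APP-cleaving proteases passed, and the lowest adjusted p was that of cathepsin B (Ctsb), with a log2 fold change of 0.24 (DESeq2 adjusted p = 0.0941). Genes of the Notch pathway, whose receptors are cut by ADAM10 and γ-secretase, also did not pass (0 of 17). Of these, 14 were lower in Abi3 KO with a median log2 fold change of −0.43, compared with −0.0034 over all genes, and 4 had an unadjusted DESeq2 p below 0.05 (background 4.44% for lower genes). Their summed count was 870.9 ± 96.4 normalized reads (SD, n = 6) in Abi3 WT and 705.5 ± 62.8 (SD, n = 5) in Abi3 KO, with all 5 Abi3 KO animals below all Abi3 WT animals. Of single genes, 1.04% did not overlap in either direction, and no share was computed for sums. The list was made with earlier results of these data known, and the sum is given without a test. Dtx1, an E3 ligase of this pathway named after its values were seen, had 123.4 to 188.0 and 102.8 to 117.5 normalized reads (DESeq2 adjusted p = 0.0967).

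**Figure D4:**
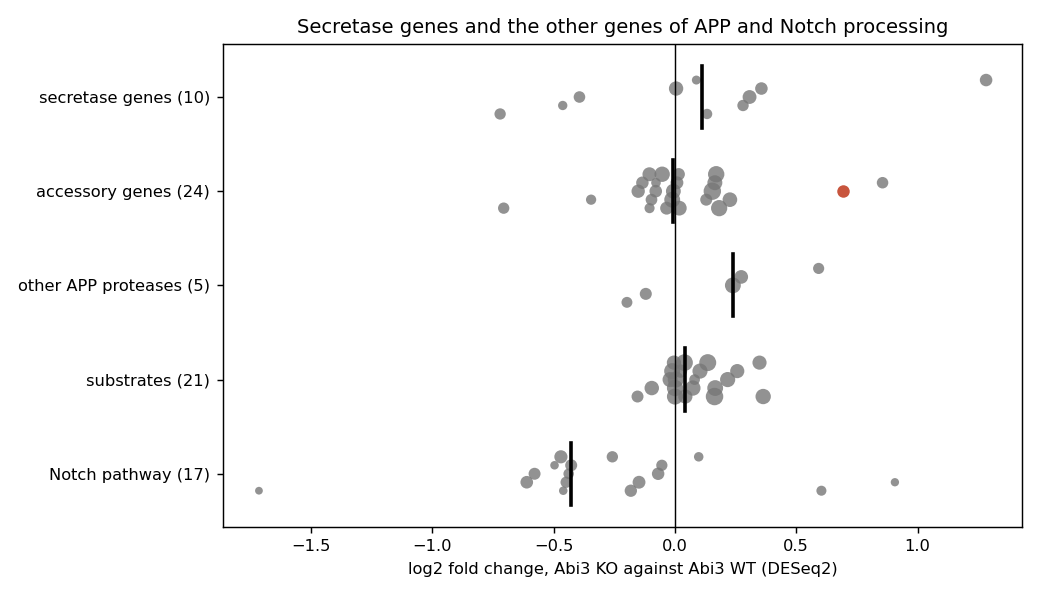
Log2 fold changes of Abi3 KO over Abi3 WT for every tested gene of the secretases and of the 4 context lists, with 1 point per gene, sized by its mean normalized count, and a vertical bar at the median of each list. The 1 colored point past the threshold is Tspan14. The Notch pathway genes have a median of −0.43, the secretases 0.11, and the median over all genes is −0.0034.

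Cell type markers were compared because bulk tissue cannot tell fewer cells of a type from less RNA per cell. None of the marker genes of any list passed the threshold. The summed count of 6 neuronal markers was 14684 to 17583 normalized reads in Abi3 WT and 16674 to 18203 in Abi3 KO, that of 6 microglial markers 1526 to 2162 and 1695 to 2377, and that of 5 astrocyte markers 2282 to 3229 and 2392 to 3000. Markers of choroid plexus ranged from 42.7 to 3543 and 91.9 to 2323, and those of striatum from 1620 to 2605 and 1469 to 2332, overlapping between the groups. All 6 striatal markers were lower in Abi3 KO, with a median log2 fold change of −0.24. Higher were 5 of 6 neuronal, 5 of 6 microglial and 6 of 6 oligodendrocyte markers, where 49.5% of all genes were higher. Among these, Stmn2, Snap25, C1qa and Cnp had an unadjusted DESeq2 p below 0.05 (4.14% of all genes). Lower were 4 of 5 astrocyte and 3 of 4 endothelial markers. Of oligodendrocyte precursor and meningeal markers, 2 of 3 and 3 of 4 were higher. Markers of blood, the hemoglobin genes, shifted most, with summed counts of 25.1 to 346.7 (median 208.3) in Abi3 WT and 7.91 to 388.1 (median 21.0) in Abi3 KO. All 4 were lower, and 3 of 5 Abi3 KO animals had a sum below all Abi3 WT animals, although none of the 4 had an unadjusted DESeq2 p below 0.05. The part of these differences in the values of the secretases was not tested beyond leaving out the 3 libraries with high Ttr.

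Over the 11 animals, the genes whose log2 normalized counts were most like those of Adam10, among 7779 genes with a mean of at least 50, were Capza2 (Pearson r = 0.90), Sirpa (r = 0.88) and B230219D22Rik (r = 0.88). For Bace1 they were Ncdn (r = 0.93), Ap1g1 (r = 0.88) and Otub2 (r = 0.86), and for Psen2 they were Suco (r = 0.93), Slc39a6 (r = 0.88) and Bach2 (r = 0.87). Aph1b, added after its values were seen, was most like Pdgfb (r = 0.91), Pccb (r = 0.90) and Rplp1 (r = 0.89). These points share libraries and, for Adam10 and Aph1b, the genotype difference. Among the members themselves, 45 pairs had a median r of −0.02. The highest was that of the low-count genes Bace2 and Aph1c (r = 0.82). Adam10 and Aph1b had r = 0.68, and Aph1a and Aph1b r = −0.70, the lowest of all pairs. Of the 20 tested genes within 1 Mb of Aph1b, none passed the threshold and 3 had an unadjusted DESeq2 p below 0.05, where 8.58% of all genes had one. Farther away, Pccb and Rplp1 also lie on chromosome 9, with Rplp1 at chr9:61820557-61821872. Rplp1 passed the threshold (log2 fold change 0.63, SE 0.17, DESeq2 adjusted p = 0.0286), and Pccb did not (0.53, SE 0.18, DESeq2 adjusted p = 0.107). Whether their position has a part in the likeness to Aph1b was not tested.

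**Figure D5:**
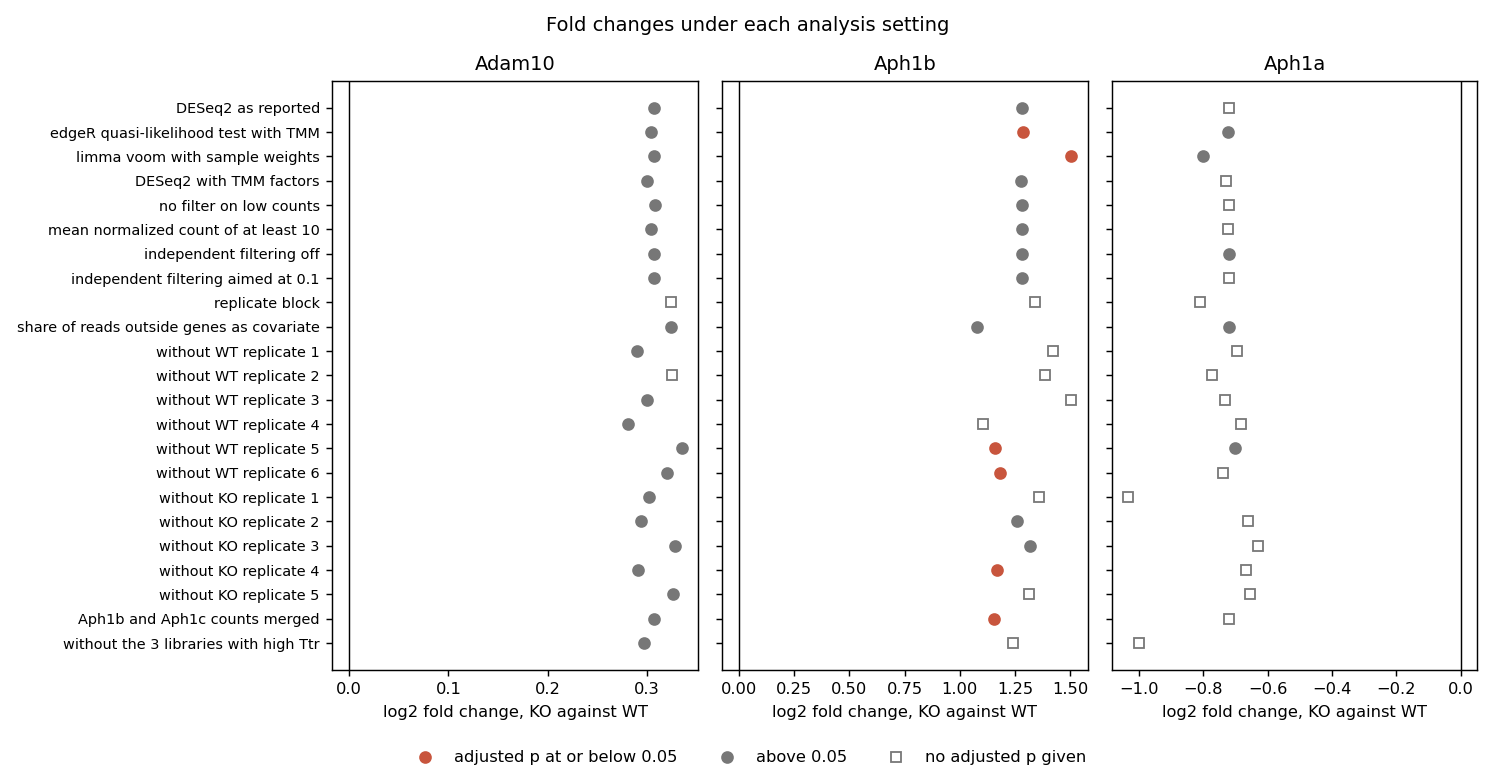
Log2 fold changes of Abi3 KO over Abi3 WT (horizontal axes) for Adam10, Aph1b and Aph1a in the reported fit and under each of 22 alternatives, 1 row per setting. Colored circles have an adjusted p of 0.05 or less, gray circles a higher one, and open squares were given none. Adam10 and Aph1b lie above 0 and Aph1a below 0 in every row, and colored circles occur for Aph1b in 6 alternatives.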

How the data were processed

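Cortex RNA of 11 mice was sequenced as QuantSeq 3′ libraries in single 76-base reads. The authors trimmed reads, aligned them to GRCm39 with STAR (version 2.7.3a) and counted them per Ensembl gene with HTSeq (version 0.9.1), by strand, and deposited raw counts. Tallies outside genes (49.8 to 68.8 reads per 100 reads in genes) were left out of library sizes.

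The 11 tables were joined, and 52610 of 53700 identifiers matched the GRCm39 annotation used here. Genotypes were compared with DESeq2 (version 1.42.0, R version 4.3.3), the tool the authors used. The model was fitted to genes with a total of at least 10 reads, results were kept for a mean of at least 1.5 normalized reads, and independent filtering was aimed at 0.05. Normalized reads are counts divided by DESeq2 size factors. Fold intervals are 95% Wald intervals. With 3 reads as the floor, the detection limit was 0.545 to 0.937 CPM, and it covers counting error only. The labels give 6 and 5 replicates without saying how litters were arranged, so p-values measure the spread between these animals.

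The members, gene lists and named genes were chosen with earlier results of these data known. Named genes were the 10 members, Abi3, App, up to 5 genes past the threshold from each context list, and for the highest member of each class the 3 genes with the highest Pearson r among genes with a mean of at least 50. Other genes named were chosen after their values were seen. Alternatives were edgeR (version 4.0.16), limma (version 3.58.1), other scalings and filters, a replicate block, a covariate and leaving out each animal. Merging Aph1b with Aph1c and leaving out the 3 libraries with high Ttr were chosen after seeing the data. The fits were tested on simulated data.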

Additional observations from a re-analysis of the deposited data

Results flagged for a closer look

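In 3 of the 20 groups of values examined (10 genes in 2 genotypes), 1 animal stood apart from the others of its group by Dixon's test, where about 1 is expected by chance. Ncstn had 69.4 normalized reads in Abi3 KO replicate 5, and the nearest animal of that group had 38.8. Without it, the log2 fold change of Ncstn went from 0.28 to 0.05. Aph1a had 49.3 normalized reads in Abi3 KO replicate 1, and the nearest had 23.7. Aph1c had 16.9 normalized reads in Abi3 WT replicate 6, and the nearest had 9.42. The causes were not tested.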

How the results depend on the processing

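Adam10, Psen2, Ncstn and Aph1a kept their direction in all 22 alternatives. None passed the threshold in the alternatives that gave an adjusted p, which were 20 for Adam10, 14 for Psen2, 5 for Ncstn and 5 for Aph1a. The number of members past the threshold was 1 (Aph1b) rather than 0 with edgeR, limma, or Aph1b and Aph1c merged, and 0 to 1 when 1 animal was left out. Aph1b kept its direction in all 22 alternatives and was given an adjusted p in 14. A count of 0 can therefore also mean that it was given none. Over all genes, 95 became 37 with edgeR, 20 with limma, 57 with filtering off, 3 with reads outside genes as a covariate, 27 without the 3 libraries with high Ttr, and 46 to 120 when 1 animal was left out. Accessory genes went from 1 to 0 under each of these settings other than the merged counts, and from 0 to 2 when 1 animal was left out. Other APP proteases were 1 (Ctsb) without the high-Ttr libraries, and 0 to 1 when 1 animal was left out. Substrates and Notch genes were each 0 to 1 when 1 animal was left out (Nlgn1 without Abi3 WT replicate 3, Chl1 without Abi3 WT replicate 5 or Abi3 KO replicate 4, Dtx1 without Abi3 WT replicate 3). With the replicate block, 30 genes passed, 0 accessory genes and 1 substrate (Chl1), and the log2 fold change was −0.0013 for Bace1 and −0.0898 for Psenen. Correlations between same-numbered animals were −0.02 to 0.12, so the numbers were not taken as pairs. Direction also turned with limma for Bace1 (−0.007), Aph1c (−0.13) and Psenen (−0.17), with TMM factors for Bace1 (−0.0033), and with the covariate for Adam17 (0.38), Bace1 (−0.23), Bace2 (0.55) and Psenen (−1.02). The covariate also moved Psen2 from 0.36 to 0.79 and Aph1c from 0.09 to 1.24. Without the high-Ttr libraries it was −0.0634 for Bace1 and −0.44 for Psenen. Leaving out 1 animal gave −0.0326 to 0.0643 for Bace1, −0.80 to 0.0668 for Bace2, −0.23 to 0.39 for Aph1c and −0.21 to 0.37 for Psenen. The causes were not tested. Genes with few reads, Bace2 and Aph1c above all, are limited by depth.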
